A study of Mus musculus with 15 samples.

Results

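RNA levels were compared between 2 mouse pre-B cell lines whose labels both carry shBCLAF1, a short hairpin RNA directed at Bclaf1. The comparison holds 6 of the 15 libraries of the series, 3 labelled Art_shBCLAF1 and 3 labelled Rag_SPIC_tet_DOX_shBCLAF1, chosen by these labels and not by any measured value. Both are Abelson cells, that is pre-B cells made to grow without end by the v-Abl oncogene, and all had spent 48 h in imatinib, a drug that blocks the Abl kinase. Art_shBCLAF1 are Artemis-deficient (Art -/-) cells with the hairpin, and their label names no SPIC construct and no doxycycline. Rag_SPIC_tet_DOX_shBCLAF1 are Rag -/- cells that carry a tetracycline-controlled SPIC construct and the hairpin and were given doxycycline. Below, these are called the Art line and the Rag line. Values are always given in the order of replicates 1 to 3, and a positive log2 fold change means higher in the Art line. The cell line, the SPIC construct and doxycycline differ together between the groups, so their parts in any difference cannot be told apart. No label names a control hairpin, how many clones stand behind a line, or whether replicates were grown apart. The p-values therefore measure only the spread between these libraries, which may be technical.

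As background, RAG1 and RAG2 form the recombinase that cuts DNA at immunoglobulin gene segments in pre-B cells, and Artemis, encoded by Dclre1c, opens the hairpin-sealed ends so that they can be joined. Cells without Artemis therefore hold unrepaired RAG breaks, whereas cells without RAG make none. SPIC, SPIB and PU.1 (encoded by Spi1) are related ETS-family transcription factors that bind the same purine-rich DNA box. PU.1 and SPIB switch on genes of the pre-B-cell receptor, and BCLAF1 is an RNA-processing and transcription protein. The title of the series concerns a complex of SPIC with BCLAF1 that dampens PU.1 after RAG breaks. Setting the shBCLAF1-labelled lines side by side asks how far they still differ when the same hairpin label is on both.

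The lines differed across most measured genes, and by small amounts at most of them. Of 11551 genes tested with limma, 6896 passed an adjusted p of 0.05 (59.7%), 3331 of them higher in the Art line (28.8% of all genes) and 3565 lower (30.9%). A change of at least 1 log2 unit was found in 1138 genes (9.85%), of which 461 were higher and 677 lower, and 4098 of the genes that passed (59.4%) changed by less than 0.5. The 3 values of one line did not overlap the 3 of the other for 7545 genes (65.3%). The genes tested are those listed in at least 1 of the 4 deposited tables, each of which holds genes that passed the authors' own comparison, so these shares are of a set already rich in genes that vary. With the spread estimated over all 15 libraries instead of these 6, 2614 genes passed. The root-mean-square difference between 2 libraries was 0.24 to 0.36 log2 units over the 6 pairs within a line and 0.67 to 0.74 over the 9 pairs between lines. Effective library sizes were 18.3 to 23 M reads in the Art line and 22.7 to 27.1 M in the Rag line, and 33 to 56 genes per library had no read. No gene went from at most 3 reads in all libraries of one line to a mean of at least 3 log2 CPM in the other.

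The extreme genes were picked among those that passed, lay at or above the median level and had groups that did not overlap. The 14 that stood highest in the Art line included genes of glycolysis, amino-acid handling and collagen processing. Cyp2c55, a cytochrome P450, was at 6.81, 6.57 and 6.67 log2 CPM in the Art line and 4.21, 4.16 and 4.30 in the Rag line (log2 fold change 2.46, SE 0.071, adjusted p = 1.28e-10). This was a 5.52-fold difference. Slc1a4, a transporter of serine and alanine, was at 6.92, 6.65 and 6.90 log2 CPM in the Art line and 4.86, 4.96 and 4.74 in the Rag line (log2 fold change 1.97, SE 0.079, adjusted p = 7.17e-10). Aldoa, the glycolytic enzyme aldolase A, was at 10.99, 10.61 and 10.90 log2 CPM in the Art line and 9.0, 8.85 and 8.92 in the Rag line (log2 fold change 1.91, SE 0.086, adjusted p = 1.93e-09). In each of these genes Art-line replicate 2 was the lowest of its group and still lay more than 1 log2 unit above the Rag line. Ero1l, an oxidase that forms disulfide bonds in the endoplasmic reticulum, was 3.7-fold higher (log2 fold change 1.89, SE 0.066, adjusted p = 2.55e-10), and Plod2, a lysyl hydroxylase of collagen, 3.55-fold (log2 fold change 1.83, SE 0.046, adjusted p = 5.3e-11). The next were Tpi1 (1.73, SE 0.09), triose-phosphate isomerase, Zbtb32 (1.76, SE 0.077), a zinc-finger repressor of lymphocytes, Grb10 (1.70, SE 0.053), an adaptor of growth-factor receptors, and Psat1 (1.64, SE 0.071), an enzyme of serine synthesis. Klhdc1 (1.72, SE 0.084), Plxna3 (1.60, SE 0.06), a semaphorin receptor, Zfp704 (1.54, SE 0.084) and Mfsd14b (1.48, SE 0.053) completed the 14, together with Tpm3-rs7 (1.92, SE 0.066), whose reads may be shared with the near-identical Tpm3.

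At the other end, 14 genes were picked in the same way as lowest in the Art line. They included the ETS factors Spic and Spib and the AP-1 factor Jun, all described with their families. After Spic, the largest difference was in Gm10800, a predicted gene with near-identical copies whose value is uncertain, at 4.59, 5.64 and 4.57 log2 CPM in the Art line and 7.70, 7.88 and 7.94 in the Rag line (log2 fold change -2.90, SE 0.21, adjusted p = 1.22e-07). Hist1h1c, a linker histone whose family members also share sequence, was at 4.33, 4.68 and 4.27 log2 CPM in the Art line and 6.85, 6.64 and 6.45 in the Rag line (log2 fold change -2.22, SE 0.11, adjusted p = 4.6e-09). Snn, a small membrane protein, was at 4.76, 5.10 and 4.79 log2 CPM in the Art line and 7.05, 7.04 and 7.07 in the Rag line (log2 fold change -2.17, SE 0.079, adjusted p = 3.23e-10). That the groups do not overlap follows from the choice of these genes. Art-line replicate 2 was the closest of its group to the Rag line in all 3. Gem, a small GTPase, was 4.09-fold lower in the Art line (log2 fold change -2.03, SE 0.055, adjusted p = 1.01e-10), and Olfm1, a secreted olfactomedin, 4.06-fold lower (log2 fold change -2.02, SE 0.064, adjusted p = 1.28e-10). Slc1a5, a glutamine transporter, was at 7.71, 7.67 and 7.64 log2 CPM in the Art line and 9.52, 9.52 and 9.54 in the Rag line (log2 fold change -1.86, SE 0.046, adjusted p = 5.3e-11). It thus lay opposite to its relative Slc1a4. Slamf7 (-1.80, SE 0.067), a receptor of lymphocytes, Gria2 (-1.76, SE 0.07), a glutamate-receptor subunit, Fam129c (-1.72, SE 0.079), Trib1 (-1.70, SE 0.061), a pseudokinase, and Marcks (-1.69, SE 0.12), a membrane-bound target of protein kinase C, were lower too.

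**Figure D1:**
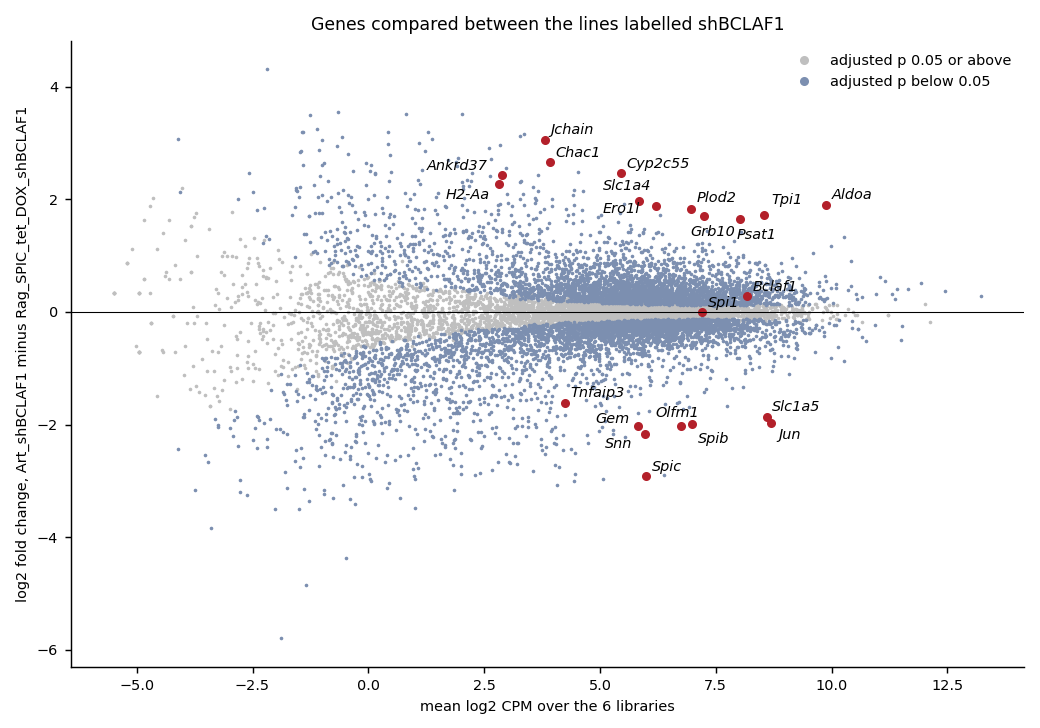
Each point is 1 gene, with its mean log2 CPM over the 6 libraries on the x axis and its log2 fold change (Art_shBCLAF1 minus Rag_SPIC_tet_DOX_shBCLAF1) on the y axis. Blue points passed an adjusted p of 0.05 in limma (6896 of 11551) and grey points did not. Spic at -2.92, Cyp2c55 at 2.46 and Aldoa at 1.91 lie far from 0, whereas Bclaf1 at 0.27 and Spi1 at -0.0092 lie close to it.

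Of the genes the labels name, Spic separated the lines most. Bclaf1 (ENSMUSG00000037608), at which the hairpin is directed, was at 8.29, 8.35 and 8.32 log2 CPM in the Art line and 7.99, 8.05 and 8.10 in the Rag line (log2 fold change 0.27, SE 0.049, adjusted p = 0.000333). Its mRNA was therefore slightly higher in the Art line, and both lines were above the unlabelled groups, whose means were 7.32 in Art, 7.70 in Rag_SPIC_tet_NoDOX and 7.73 in Rag_SPIC_tet_DOX. The libraries labelled shBCLAF1 thus showed no lower Bclaf1 mRNA, and the protein was not measured. Whether the hairpin acted was not tested, and these libraries are named here by their label only. Spic (ENSMUSG00000004359), the gene of the inducible construct, was at 4.47, 4.34 and 4.80 log2 CPM in the Art line and 7.50, 7.43 and 7.44 in the Rag line (log2 fold change -2.92, SE 0.093, adjusted p = 1.28e-10). The Rag line thus held 7.56-fold more Spic mRNA. The Art line, whose label names no construct, was nevertheless at 4.54 ± 0.24 (SD, n = 3), above the 0.44 ± 0.36 of unlabelled Art and close to the 4.21 ± 0.44 of induced cells without the hairpin label. Spib (ENSMUSG00000008193) was at 5.91, 6.10 and 5.98 log2 CPM in the Art line and 8.07, 7.96 and 7.96 in the Rag line (log2 fold change -2.0, SE 0.058, adjusted p = 1.28e-10), so that it was 4-fold lower in the Art line. Spi1 (ENSMUSG00000002111) did not differ beyond the spread of the libraries, at 7.30, 7.19 and 7.12 log2 CPM in the Art line and 7.23, 7.20 and 7.20 in the Rag line (log2 fold change -0.0092, SE 0.054, adjusted p = 0.896). Bclaf1 did not pass with the spread estimated over all 15 libraries.

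The deficiencies in the labels are not visible as a loss of mRNA. Rag1 (ENSMUSG00000061311) was at 8.25, 8.56 and 8.38 log2 CPM in the Art line and 9.0, 8.94 and 8.94 in the Rag line (log2 fold change -0.56, SE 0.067, adjusted p = 1.29e-05), and Rag2 (ENSMUSG00000032864) at 5.57, 5.68 and 5.65 log2 CPM in the Art line and 5.09, 5.24 and 5.26 in the Rag line (log2 fold change 0.44, SE 0.065, adjusted p = 7.89e-05). Rag1 was lower and Rag2 higher in the Art line, although it is the other line that is labelled Rag -/-. Dclre1c (ENSMUSG00000026648), the Artemis gene, was at 3.83, 4.25 and 4.16 log2 CPM in the Art line and 4.81, 4.82 and 4.94 in the Rag line (log2 fold change -0.77, SE 0.10, adjusted p = 2.67e-05). It was 1.71-fold lower in the Artemis-deficient line, with reads in all of its libraries. The labels do not say which stretch of each gene is deleted, so reads outside it can remain and these levels do not check the labels. Syk, the kinase that signals from the pre-B-cell receptor, did not pass (log2 fold change 0.11, SE 0.061, adjusted p = 0.137). Blnk, its adaptor, was at 8.85, 9.19 and 8.82 log2 CPM in the Art line and 9.56, 9.45 and 9.51 in the Rag line (log2 fold change -0.55, SE 0.083, adjusted p = 9.51e-05). Myc, the growth-promoting transcription factor, was at 8.89, 8.68 and 8.79 log2 CPM in the Art line and 9.13, 9.20 and 9.29 in the Rag line (log2 fold change -0.42, SE 0.063, adjusted p = 8.84e-05), a small difference between lines that both lay far above the mean of 4.07 in unlabelled Art and 5.6 in Rag_SPIC_tet_NoDOX. Dclre1c, Myc, Rag1 and Rag2 did not pass with the spread estimated over all 15 libraries.

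**Figure D2:**
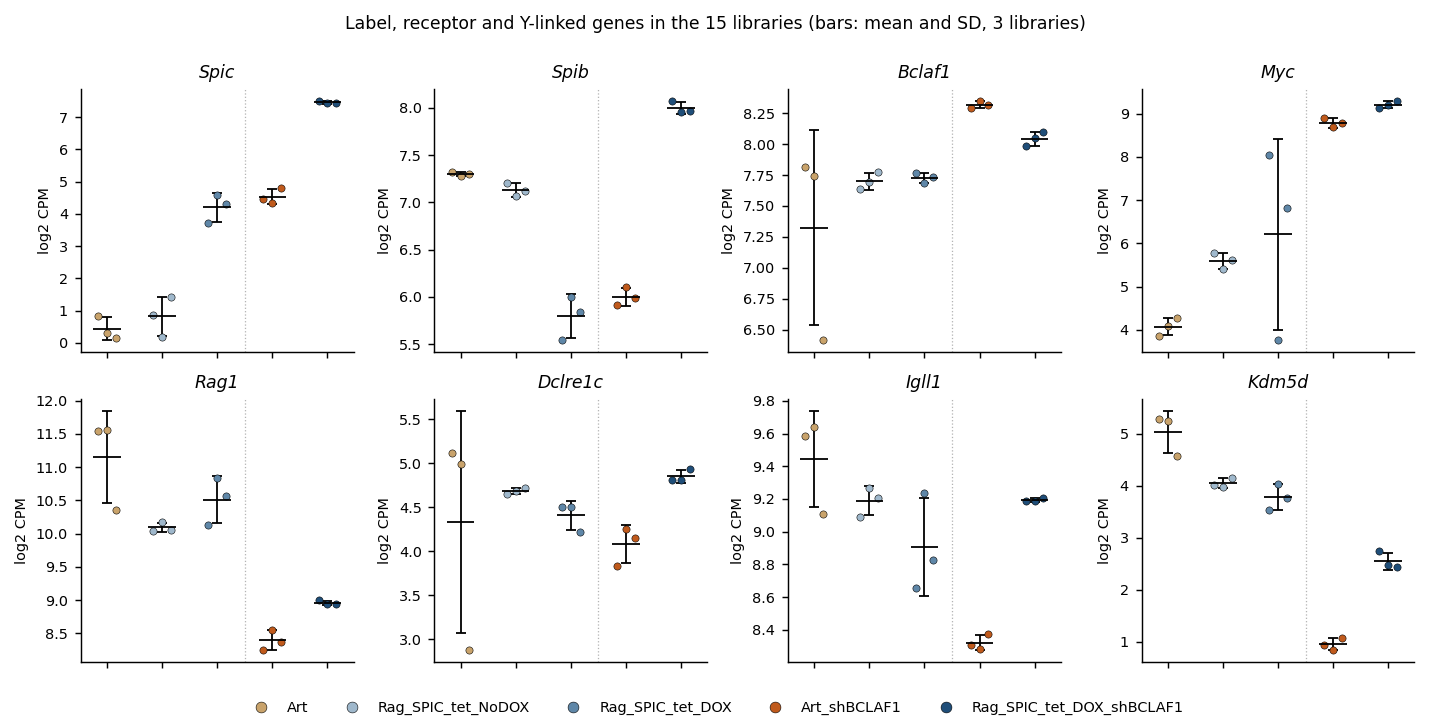
Each panel shows 1 gene in log2 CPM (y axis) in all 15 libraries by group (x axis), with points for libraries and bars for the mean and SD of 3 libraries; the dotted line sets off the groups labelled shBCLAF1. Spic is lower and Bclaf1 slightly higher in Art_shBCLAF1 than in Rag_SPIC_tet_DOX_shBCLAF1, and the Y-linked gene Kdm5d is at means of 0.96 and 2.55 in these 2 groups.

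Pre-B-cell genes were mostly lower in the Art line, by modest amounts. All 14 pre-B-cell markers were measured, and 11 were lower and 0 higher, with a median of -0.40, where 30.9% of all genes were lower, and with the spread of all 15 libraries 0 higher and 5 lower passed. Their summed level was 6538 to 7377 CPM in the Art line and 8397 to 8724 in the Rag line. Most measured markers of myeloid cells, which PU.1 also drives, lay the other way. Of 14, 7 were measured, 2 of them at no more than 3 reads in any library, and 5 were higher and 0 lower (2 higher and 0 lower with the spread of all 15 libraries), while their sum was 71.7 to 73.5 CPM against 34.2 to 37.1. Over all genes, 28.8% were higher. The fold changes of these markers ran from -1.37 to 1.27 log2 units, and Fcgr3, given below, made up most of the sum. The defining myeloid genes Mpo, Elane, S100a8, Cebpa and Cebpe are not among the genes analysed here. In bulk libraries fewer cells of a type and less RNA per cell cannot be told apart, and the part of myeloid genes in other results was not tested.

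The surrogate light-chain gene Igll1, part of the pre-B-cell receptor, was at 8.31, 8.28 and 8.37 log2 CPM in the Art line and 9.19, 9.19 and 9.21 in the Rag line (log2 fold change -0.87, SE 0.048, adjusted p = 1.03e-08). Its partner Vpreb1 was at 8.10, 7.95 and 8.07 log2 CPM in the Art line and 8.74, 8.62 and 8.58 in the Rag line (log2 fold change -0.61, SE 0.058, adjusted p = 1.55e-06). The Art line was lower in every library for both, while Vpreb2 (-0.054, adjusted p = 0.506) and Vpreb3 (-0.071, adjusted p = 0.321) did not pass. The signalling chains Cd79a (-0.35, SE 0.054) and Cd79b (-0.31, SE 0.068) were lower in the Art line. Among kinases, Blk, a Src-family kinase, was at 6.74, 6.52 and 6.72 log2 CPM in the Art line and 7.71, 7.66 and 7.62 in the Rag line (log2 fold change -1.01, SE 0.061, adjusted p = 2.73e-08). Zap70, the relative of Syk known from T cells, was higher (0.95, SE 0.13). Over the whole list of 35 receptor and signalling genes, 9 were higher in the Art line, 17 were lower and 9 did not pass, with a median of -0.071. As shares, 25.7% were higher and 48.6% lower, where all genes gave 28.8% and 30.9%. With the spread of all 15 libraries 2 higher and 8 lower genes passed. Cd79a, Cd79b and Vpreb1 did not pass with the spread estimated over all 15 libraries.

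Of 24 transcription factors of the B lineage, 4 were higher in the Art line, 14 were lower and 6 did not pass (median -0.20; 3 higher and 9 lower with the spread of all 15 libraries). That is 16.7% higher and 58.3% lower, against 28.8% and 30.9% of all genes. Sox4, a factor of early B cells, was at 7.31, 7.73 and 7.23 log2 CPM in the Art line and 8.84, 8.73 and 8.69 in the Rag line (log2 fold change -1.33, SE 0.10, adjusted p = 1.88e-07). Ikzf3, which encodes Aiolos, was at 7.0, 7.27 and 7.14 log2 CPM in the Art line and 8.30, 8.33 and 8.34 in the Rag line (log2 fold change -1.19, SE 0.063, adjusted p = 8.02e-09). Bcl11a, another zinc-finger factor, was at 7.74, 7.78 and 7.77 log2 CPM in the Art line and 8.72, 8.82 and 8.82 in the Rag line (log2 fold change -1.02, SE 0.049, adjusted p = 3.37e-09). Groups did not overlap in any of the 3. Bach2 (-0.82, SE 0.089), Irf4 (-0.50, SE 0.068) and Foxo1 (-0.47, SE 0.058) were lower by less than 1 log2 unit and Pax5 by less still (-0.28, SE 0.053), and Ebf1 and Tcf3 did not pass (adjusted p = 0.055 and 0.0512). Pou2f1 was higher (0.75, SE 0.06). In the ETS family outside the SPI factors, 5 of 16 genes were higher and 6 lower (median -0.014; 2 higher and 3 lower with the spread of all 15 libraries). Their shares, 31.2% and 37.5%, stand beside 28.8% and 30.9% of all genes. Erg, a haematopoietic ETS factor, was at 5.94, 6.31 and 6.13 log2 CPM in the Art line and 7.65, 7.60 and 7.63 in the Rag line (log2 fold change -1.5, SE 0.076, adjusted p = 5.33e-09), and Ets2 and Ets1 were lower too (-1.02, SE 0.12 and -0.48, SE 0.068). Etv5 (1.20, SE 0.058) and Etv4 (0.70, SE 0.11), which respond to growth-factor signals, and the repressor Erf (0.50, SE 0.068) were higher, and Fli1 did not pass (adjusted p = 0.436). Etv4, Etv5, Pax5 and Pou2f1 did not pass with the spread estimated over all 15 libraries.

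Known targets of PU.1 and SPIB lay on both sides. Of 23 measured, 7 were higher in the Art line, 10 were lower and 6 did not pass (median 0.0031, against -0.017 over all genes). These are shares of 30.4% higher and 43.5% lower, where all genes gave 28.8% and 30.9%, and with the spread of all 15 libraries 1 higher and 5 lower passed. Bcl6, a repressor of mature B cells, was at 4.64, 5.40 and 4.66 log2 CPM in the Art line and 6.30, 6.28 and 6.29 in the Rag line (log2 fold change -1.40, SE 0.15, adjusted p = 4.93e-06). Fcrla, a B-cell receptor-like protein, was at 4.45, 4.60 and 4.47 log2 CPM in the Art line and 5.76, 5.66 and 5.67 in the Rag line (log2 fold change -1.19, SE 0.067, adjusted p = 1.34e-08). Art-line replicate 2 was the highest of its group for both and still lay below the Rag line. Ciita, the switch of MHC class II, was at 3.59, 3.37 and 3.40 log2 CPM in the Art line and 2.35, 2.74 and 2.46 in the Rag line (log2 fold change 0.93, SE 0.12, adjusted p = 2.93e-05), and Tyrobp, a myeloid adaptor, was 2.02-fold higher at a low level (log2 fold change 1.01, SE 0.22, adjusted p = 0.00154). Among myeloid markers, the Fc receptor Fcgr3 was at 5.76, 5.80 and 5.72 log2 CPM in the Art line and 4.64, 4.44 and 4.50 in the Rag line (log2 fold change 1.24, SE 0.068, adjusted p = 1.08e-08) and Cd68, a lysosomal protein, was higher as well (0.54, SE 0.09). Other myeloid genes of the target list passed in both directions. The Fc receptor Fcgr2b did not pass (log2 fold change 0.13, SE 0.057, adjusted p = 0.0576). Cd68 and Ciita did not pass with the spread estimated over all 15 libraries.

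Genes that handle RAG breaks and genes that respond to them lay on both sides of 0. Of 23 genes of V(D)J recombination and end joining, 11 were higher in the Art line, 7 were lower and 5 did not pass (median 0.097; 2 higher and 3 lower with the spread of all 15 libraries). These were 47.8% and 30.4%, and the shares over all genes were 28.8% and 30.9%. Lig4, the ligase that joins the ends, was at 4.59, 4.80 and 4.65 log2 CPM in the Art line and 6.02, 5.93 and 5.92 in the Rag line (log2 fold change -1.28, SE 0.068, adjusted p = 8.41e-09). Dntt, which adds bases at the joints, was at 5.46, 5.72 and 5.56 log2 CPM in the Art line and 6.71, 6.55 and 6.56 in the Rag line (log2 fold change -1.03, SE 0.07, adjusted p = 8.38e-08), and H2afx, the histone marked at breaks, was higher (0.69, SE 0.067). Of 17 genes of the response to RAG breaks, 7 were higher in the Art line, 7 were lower and 3 did not pass (4 higher and 5 lower with the spread of all 15 libraries). Each direction thus held 41.2% of the list. Cd86, a costimulatory receptor, was at 1.19, 0.96 and 1.11 log2 CPM in the Art line and -1.25, -1.45 and -0.81 in the Rag line (log2 fold change 2.26, SE 0.25, adjusted p = 6.08e-06), whereas its relative Cd80 was at 1.04, 2.01 and 1.38 log2 CPM in the Art line and 2.72, 3.07 and 2.77 in the Rag line (log2 fold change -1.37, SE 0.21, adjusted p = 9.63e-05). These costimulatory genes thus lay in opposite directions. Cd44, an adhesion receptor, was higher in the Art line (1.69, SE 0.13) and Cd40 lower (-1.57, SE 0.21). Gadd45a, a stress gene, was higher (0.76, SE 0.098).

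Glycolysis and hypoxia genes were higher in the Art line almost throughout. Of 34 measured, 32 were higher, 0 lower and 2 did not pass, where 28.8% of all genes were higher. Their median was 0.99 log2 units, against -0.017 over all genes, and 17 of them differed by at least 1. With the spread of all 15 libraries 13 passed as higher and 0 as lower. As background, cells turn these genes up when oxygen is low, through the factor HIF, which binds a short core sequence in their promoters. The 250 bases before the gene start are shown for the hypoxia genes Ankrd37 (GRCm38.p6, chr8:45999851-46000100, minus strand) and Bnip3 (chr7:138909507-138909756, minus strand), read 5′ to 3′ along the gene, with the core ACGTG or its complement CACGT in capitals.
Ankrd37: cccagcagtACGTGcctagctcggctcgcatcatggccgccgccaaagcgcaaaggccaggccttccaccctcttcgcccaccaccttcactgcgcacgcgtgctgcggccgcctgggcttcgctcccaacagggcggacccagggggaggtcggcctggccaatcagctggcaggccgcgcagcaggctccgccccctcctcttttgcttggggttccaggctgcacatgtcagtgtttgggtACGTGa
Bnip3: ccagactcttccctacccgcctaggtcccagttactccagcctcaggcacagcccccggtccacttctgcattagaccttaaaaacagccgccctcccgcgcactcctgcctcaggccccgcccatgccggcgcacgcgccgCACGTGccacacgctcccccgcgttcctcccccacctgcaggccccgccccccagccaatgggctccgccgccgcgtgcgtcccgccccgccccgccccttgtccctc
Of the 34 genes, 31 had such a window in the RefSeq table, and 20 of these (64.5%) held the core on either strand, as did 25.1% of the 9102 genes of the comparison with a window. The median fold change was 0.92 log2 units for the 20 genes with the core and 1.08 for the 11 without it. A match describes the letters only and does not show that the site is used.

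Ankrd37, an ankyrin-repeat gene known as a HIF target, was at 4.39, 3.80 and 4.12 log2 CPM in the Art line and 1.44, 1.94 and 1.66 in the Rag line (log2 fold change 2.43, SE 0.16, adjusted p = 5.59e-08). Bnip3, a mitochondrial protein of hypoxic cells, was also higher (1.42, SE 0.06). Aldoc and P4ha2, an aldolase and a collagen prolyl hydroxylase, were at 1.88 and 2.05 log2 units. Along the pathway, the glucose transporter Slc2a1 (1.16, SE 0.059), hexokinase Hk2 (0.41, SE 0.086), Gpi1 (0.73, SE 0.062), Aldoa, Tpi1, Gapdh (1.13, SE 0.081), Pgk1 (0.92, SE 0.13), Pkm (1.34, SE 0.084) and Ldha (1.17, SE 0.081) all passed in the same direction. Their differences ran from 0.41 at Hk2 to 1.91 at Aldoa. Pdk1, which encodes a kinase that inhibits pyruvate dehydrogenase, was higher too (1.11, SE 0.06). The regulators Pfkfb3 (-0.052, adjusted p = 0.468) and Pfkfb4 (0.029, adjusted p = 0.817) were the 2 that did not pass. Art-line replicate 2 was the lowest of its group for 29 of the 34 genes, and without that library the list's median was 1.11. Gapdh, Gpi1, Hk2, Ldha, P4ha2, Pgk1, Pkm and Slc2a1 did not pass with the spread estimated over all 15 libraries.

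Serine synthesis, amino-acid transport and ATF4 target genes were higher as well. Of 37 measured, 30 were higher in the Art line, 2 were lower and 5 did not pass, with a median of 0.82, and with the spread of all 15 libraries 18 higher and 1 lower passed. Over all genes 28.8% were higher and 30.9% lower, and in this list 81.1% and 5.41%. ATF4 is a transcription factor that cells make when amino acids run short, and it binds the amino-acid-response element. The windows of Chac1 (GRCm38.p6, chr2:119350992-119351241, plus strand), which breaks down glutathione, and Asns (chr6:7693210-7693459, minus strand), asparagine synthetase, hold that element, searched as TGATGNAA and its complement TTNCATCA and set in capitals.
Chac1: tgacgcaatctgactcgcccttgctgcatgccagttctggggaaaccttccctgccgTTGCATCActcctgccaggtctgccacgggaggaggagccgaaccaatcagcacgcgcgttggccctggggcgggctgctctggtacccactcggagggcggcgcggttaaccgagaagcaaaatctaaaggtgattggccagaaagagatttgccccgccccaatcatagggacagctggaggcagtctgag
Asns: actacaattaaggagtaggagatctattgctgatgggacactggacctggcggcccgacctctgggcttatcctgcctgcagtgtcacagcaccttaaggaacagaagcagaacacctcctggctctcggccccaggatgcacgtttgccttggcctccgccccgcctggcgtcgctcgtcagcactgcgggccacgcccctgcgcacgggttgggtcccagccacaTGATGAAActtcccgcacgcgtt
It stood in 5 of the 29 list genes with a window (17.2%) and in 2.53% of all 9102 genes. The median fold change was 0.83 log2 units for these 5 and 0.68 for the 24 without it. Here too a match does not show that the site is used. Chac1 was at 5.39, 4.97 and 5.38 log2 CPM in the Art line and 2.61, 2.57 and 2.58 in the Rag line (log2 fold change 2.66, SE 0.11, adjusted p = 9.41e-10), a 6.3-fold difference. Asns was higher too (0.97, SE 0.07). Trib3, a pseudokinase induced by ATF4, was at 6.09, 5.70 and 5.89 log2 CPM in the Art line and 4.28, 4.11 and 4.09 in the Rag line (log2 fold change 1.73, SE 0.093, adjusted p = 9.11e-09). All 3 are classical ATF4 targets, and the libraries of the lines did not overlap in any of them.

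Within serine synthesis the first enzyme, Phgdh, did not pass (log2 fold change 0.047, SE 0.076, adjusted p = 0.612), the second, Psat1, was at 9.01, 8.66 and 8.88 log2 CPM in the Art line and 7.20, 7.19 and 7.23 in the Rag line (log2 fold change 1.64, SE 0.071, adjusted p = 1.47e-09), and the third, Psph, was higher by 0.65 (SE 0.074). Mthfd2 and Shmt2, which carry serine carbon into mitochondrial folate, were higher (1.43, SE 0.068 and 0.71, SE 0.071). Transporters were higher for large neutral amino acids and glycine, with Slc7a5 at 0.97, SE 0.067, its partner Slc3a2 at 0.97, SE 0.066 and Slc6a9 at 1.21, SE 0.083. The exceptions were the glutamine transporter Slc1a5, given above, and Shmt1 (-0.15, SE 0.061), the cytosolic counterpart of Shmt2. Cytosolic tRNA synthetases followed, from 0.14 at Wars to 1.20 at Cars. Atf4 itself was higher by 0.56, SE 0.059 and Cebpb, another stress-induced factor, by 1.81, SE 0.13. Ddit3, which encodes CHOP, did not pass (0.046, adjusted p = 0.625). Art-line replicate 2 was the lowest of its group for 34 of the 37 genes and replicate 1 the highest for 33. The chaperones of the unfolded-protein response lay the other way, with 53.3% lower against 30.9% of all genes. Of 15, 0 were higher and 8 lower (0 higher and 3 lower with the spread of all 15 libraries), with Hspa5, which encodes BiP, at 8.61, 8.43 and 8.48 log2 CPM in the Art line and 9.27, 9.35 and 9.28 in the Rag line (log2 fold change -0.79, SE 0.057, adjusted p = 1.21e-07), and Dnajb9 at -0.83, SE 0.077. Psph, Shmt1, Shmt2 and Wars did not pass with the spread estimated over all 15 libraries. The small differences of Shmt1 and Wars also lost the call under other alternatives, among them leaving out Art-line replicate 3 or any 1 of the Rag-line replicates.

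NF-kB genes were mostly lower in the Art line. Of 30 subunits, inhibitors and targets, 1 was higher, 20 were lower and 9 did not pass, with a median of -0.43. This makes 3.33% higher and 66.7% lower, where all genes gave 28.8% and 30.9%. With the spread of all 15 libraries 0 higher and 10 lower passed. NF-kB is a family of transcription factors held in the cytoplasm by IkB proteins, several of which it induces itself as feedback. The windows of Nfkbia (GRCm38.p6, chr12:55492648-55492897, minus strand), which encodes IkB-alpha, and of the subunit gene Nfkb2 (chr19:46304487-46304736, plus strand) hold the kB site, searched on both strands as GGG, any 2 bases and TTTCC without a gap, and set in capitals.
Nfkbia: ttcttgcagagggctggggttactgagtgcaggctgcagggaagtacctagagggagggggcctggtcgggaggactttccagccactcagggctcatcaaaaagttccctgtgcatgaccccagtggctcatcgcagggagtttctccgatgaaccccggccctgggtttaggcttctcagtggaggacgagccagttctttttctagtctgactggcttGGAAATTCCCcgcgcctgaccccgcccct
Nfkb2: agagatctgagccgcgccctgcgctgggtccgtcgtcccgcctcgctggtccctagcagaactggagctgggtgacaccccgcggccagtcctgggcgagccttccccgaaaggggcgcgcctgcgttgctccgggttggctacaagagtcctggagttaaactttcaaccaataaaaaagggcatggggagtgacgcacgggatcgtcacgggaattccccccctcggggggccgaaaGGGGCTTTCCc
It stood in 6 of the 21 list genes with a window (28.6%) and in 1.83% of all 9102. For these 6 the median fold change was -0.51 log2 units, and for the 15 without it -0.29. Again a match does not show that the site is used. Nfkb2 was at 6.09, 6.49 and 6.14 log2 CPM in the Art line and 6.94, 6.78 and 6.82 in the Rag line (log2 fold change -0.61, SE 0.089, adjusted p = 7.58e-05), and Nfkbia was lower as well (-0.55, SE 0.07). Among the subunits, Rel (-0.40, SE 0.076), Relb (-0.46, SE 0.083) and Rela (-0.29, SE 0.069) were lower, and Nfkb1 did not pass (adjusted p = 0.404). Of the inhibitors, Tnfaip3, a ubiquitin editor, was at 3.25, 3.79 and 3.28 log2 CPM in the Art line and 5.19, 5.01 and 4.94 in the Rag line (log2 fold change -1.61, SE 0.13, adjusted p = 2.98e-07) and Nfkbid at 4.46, 4.58 and 4.41 log2 CPM in the Art line and 5.66, 5.52 and 5.57 in the Rag line (log2 fold change -1.09, SE 0.069, adjusted p = 4.02e-08). These feedback genes were lower in all 3 Art-line libraries. The cytokine genes Tnf (-1.77, SE 0.12) and Il15 (-1.59, SE 0.18) were lower by more than 1 log2 unit, and Ccl3 was the 1 gene that was higher (0.80, SE 0.26). Ccl3, Rel, Rela, Relb and Tnf did not pass with the spread estimated over all 15 libraries. Ccl3 did not pass without Art-line replicate 3. Ccl3 did not pass without Rag-line replicate 3.

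**Figure D3:**
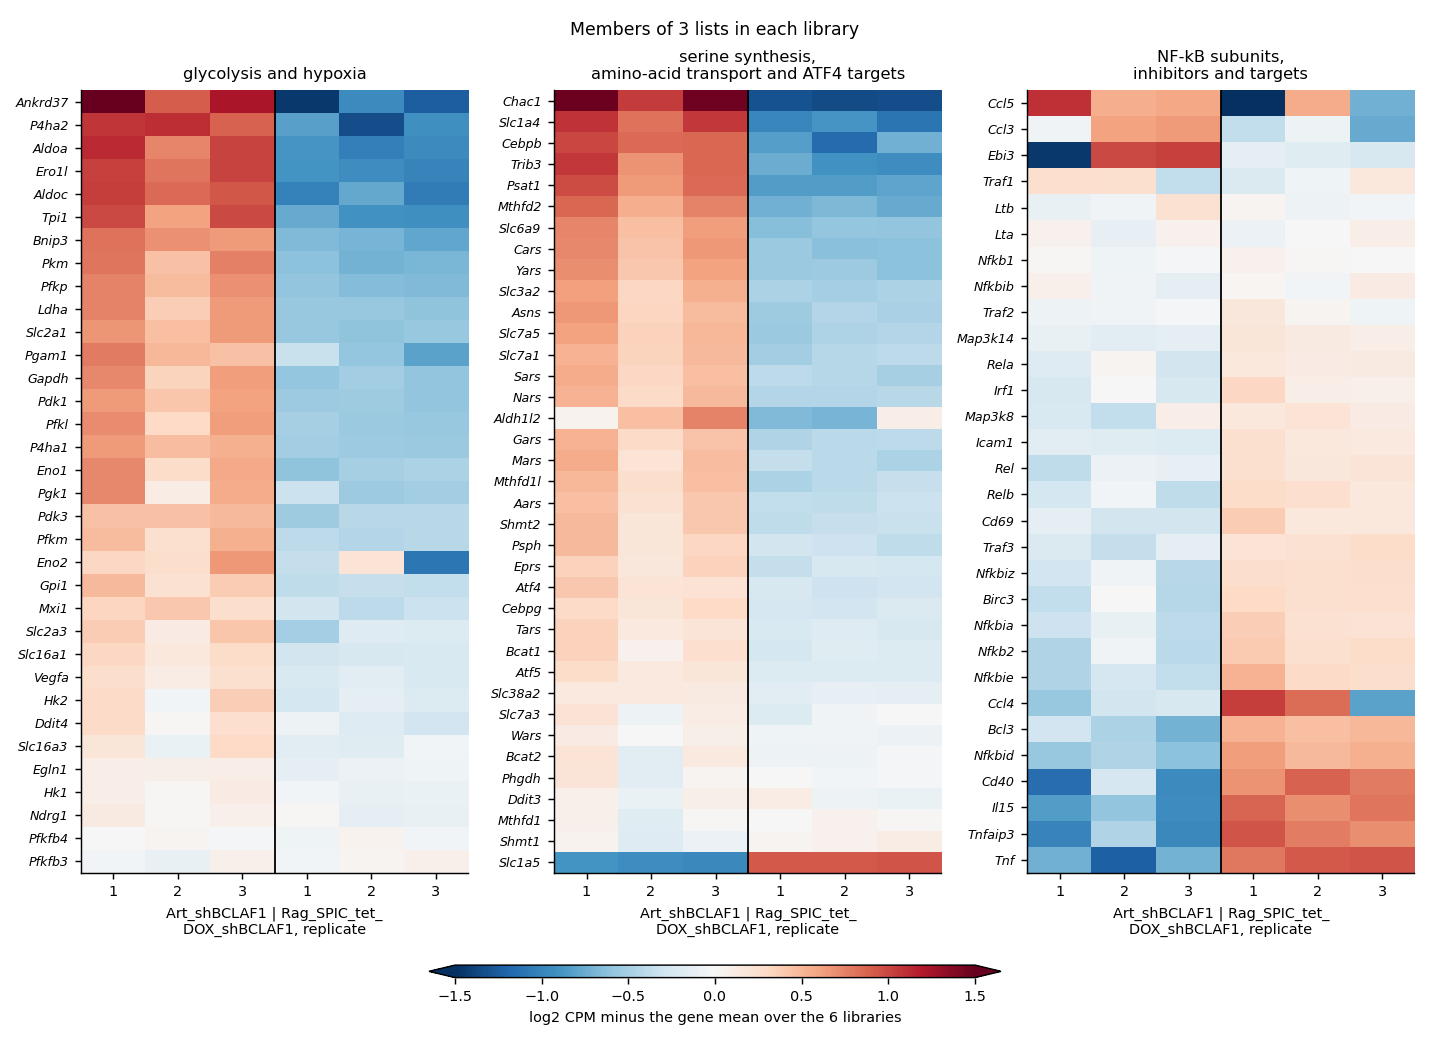
Colour gives each gene's log2 CPM minus its mean over the 6 libraries (scale from -1.5 to 1.5, darker beyond), for the members of 3 lists (rows, ordered by fold change) in each library (columns: Art_shBCLAF1 replicates 1 to 3, then Rag_SPIC_tet_DOX_shBCLAF1 replicates 1 to 3). Red prevails on the left for most of the 34 glycolysis and hypoxia genes and of the 37 serine, transport and ATF4 genes, where Slc1a5 and Shmt1 passed the other way, and blue for most of the 30 NF-kB genes; Art_shBCLAF1 replicate 2 is paler than its fellows in the first 2 panels.

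p53 targets and cell-death genes were lower in the Art line too. Of 28 p53 targets, 4 were higher in the Art line, 20 were lower and 4 did not pass (median -0.60), and 1 higher and 15 lower passed with the spread of all 15 libraries. The shares were 14.3% higher and 71.4% lower, beside 28.8% and 30.9% over all genes. Trp53 itself did not pass (log2 fold change 0.076, SE 0.049, adjusted p = 0.199). Ccng1, a cyclin induced by p53, was at 8.15, 8.49 and 8.10 log2 CPM in the Art line and 9.15, 9.23 and 9.25 in the Rag line (log2 fold change -0.96, SE 0.084, adjusted p = 7.16e-07), and Cdkn1a, which encodes the cell-cycle inhibitor p21, at 7.71, 7.97 and 7.75 log2 CPM in the Art line and 8.40, 8.38 and 8.46 in the Rag line (log2 fold change -0.61, SE 0.065, adjusted p = 4.88e-06). Aen, a nuclease of apoptosis, was lower by a similar amount (-0.99, SE 0.057), and Mdm2, the ubiquitin ligase of p53, by less (-0.26, SE 0.062). The largest differences were in Plk2 (-3.21, SE 0.78), a kinase induced by stress, and Eda2r (-2.60, SE 0.28), a receptor of the TNF-receptor family, with means of -4.38 and -1.71 log2 CPM in the Art line. At its level Plk2 rests on very few reads, so the size of its difference is uncertain. The death genes Pmaip1 (-0.95, SE 0.067) and Bbc3 (-0.80, SE 0.10) were lower by less than 1 log2 unit. In the BCL2 family of 13 genes, 3 were higher in the Art line, 9 were lower and 1 did not pass (median -0.49; 1 higher and 7 lower with the spread of all 15 libraries). Here 23.1% were higher and 69.2% lower. Bcl2, which protects from death, was at 8.24, 8.69 and 8.25 log2 CPM in the Art line and 9.20, 9.08 and 9.08 in the Rag line (log2 fold change -0.72, SE 0.097, adjusted p = 3.48e-05), and Bmf, which promotes it, at 6.82, 7.56 and 6.93 log2 CPM in the Art line and 8.03, 7.95 and 7.79 in the Rag line (log2 fold change -0.82, SE 0.14, adjusted p = 0.000283). Both kinds of gene were thus lower, and Art-line replicate 2 was the closest to the Rag line in each. Bok was the lowest of the family (-2.51, SE 0.22), Bcl2l1 was slightly lower (-0.21, SE 0.053) and Bcl2l2 did not pass (adjusted p = 0.794). Bcl2l1 did not pass with the spread estimated over all 15 libraries.

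Cell-cycle genes were higher in the Art line. Of 48, 40 were higher in the Art line, 3 were lower and 5 did not pass (median 0.54), with 24 higher and 1 lower under the spread of all 15 libraries. Thus 83.3% were higher and 6.25% lower, where all genes gave 28.8% and 30.9%. Top2a, a topoisomerase of dividing cells, was at 10.16, 9.97 and 10.20 log2 CPM in the Art line and 8.99, 9.10 and 9.10 in the Rag line (log2 fold change 1.05, SE 0.066, adjusted p = 3.73e-08). E2f8, a factor of the replication phase, was at 7.86, 7.81 and 7.77 log2 CPM in the Art line and 6.45, 6.62 and 6.72 in the Rag line (log2 fold change 1.22, SE 0.064, adjusted p = 7.14e-09), and Gmnn, which limits replication to once per cycle, at 5.85, 5.51 and 5.78 log2 CPM in the Art line and 4.51, 4.55 and 4.36 in the Rag line (log2 fold change 1.24, SE 0.089, adjusted p = 1.25e-07). In all 3 genes every Art-line library was above every Rag-line library. Ccnb2 (1.09, SE 0.063), Bub1 (1.03, SE 0.061) and Ccna2 (0.75, SE 0.057), which act in mitosis and its approach, were higher, and so was the proliferation marker Mki67 (0.63, SE 0.075). The 3 that were lower were the G1 cyclins Ccnd1 (-0.86) and Ccne1 (-0.28) and the inhibitor Cdkn1a, given above. Art-line replicate 2 was the lowest of its group for 41 of the 48 genes, and Rag-line replicate 1 for 38. Genes of the MYC network and ribosome biogenesis leaned the other way, with 5 of 34 higher and 17 lower (median -0.13; 2 higher and 1 lower with the spread of all 15 libraries). In that list 14.7% were higher and 50% lower. Rrs1 (-0.82, SE 0.065), Bysl (-0.63, SE 0.059) and Nop2 (-0.55, SE 0.062), which build ribosomal subunits, were lower, Mycn did not pass (adjusted p = 0.692), and Mxd3, a MAX partner of dividing cells, was higher (1.20, SE 0.12). Bub1, Ccnd1, Ccne1, Mki67, Nop2 and Rrs1 did not pass with the spread estimated over all 15 libraries.

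Antigen-presentation genes split by class. The MHC class II genes that passed were higher in the Art line, and several class I genes were slightly lower. H2-Aa, the class II alpha chain, was at 4.14, 3.74 and 4.02 log2 CPM in the Art line and 1.44, 1.63 and 2.01 in the Rag line (log2 fold change 2.27, SE 0.15, adjusted p = 7.17e-08). H2-Ab1, its beta chain, was at 6.73, 6.51 and 6.63 log2 CPM in the Art line and 5.25, 5.22 and 5.17 in the Rag line (log2 fold change 1.41, SE 0.062, adjusted p = 1.73e-09), and H2-DMb2, a peptide exchanger, at 3.76, 3.55 and 3.68 log2 CPM in the Art line and 1.88, 1.88 and 1.99 in the Rag line (log2 fold change 1.75, SE 0.11, adjusted p = 3.57e-08). The same direction was seen for their regulator Ciita, given above, and for the invariant chain Cd74 (0.86, SE 0.062). The class I heavy chains H2-K1 (-0.30, SE 0.07) and H2-D1 (-0.29, SE 0.068), whose reads may be shared with near-identical relatives, were lower. H2-T24 was the lowest (-1.12, SE 0.11). Over the list of 26, 9 were higher in the Art line, 10 were lower and 7 did not pass (3 higher and 3 lower with the spread of all 15 libraries). The list's shares were 34.6% and 38.5%, and those of all genes 28.8% and 30.9%. Among 29 interferon-stimulated genes, 2 were higher, 11 lower and 16 did not pass (median -0.21; 1 higher and 8 lower with that spread). There, 6.9% were higher and 37.9% lower. Bst2, which tethers viruses to the cell, was at 3.13, 2.94 and 2.92 log2 CPM in the Art line and 5.06, 5.01 and 5.07 in the Rag line (log2 fold change -2.05, SE 0.084, adjusted p = 9.15e-10). The guanylate-binding proteins Gbp9 (-0.77, SE 0.14) and Gbp4 (-0.71, SE 0.12) were lower and Ifit2 was higher (0.62, SE 0.071), and Isg15 did not pass (adjusted p = 0.0524). Cd74, H2-D1, H2-DMb2, H2-K1 and Ifit2 did not pass with the spread estimated over all 15 libraries.

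Among genes that report signalling, immediate-early factors of the AP-1 family were lower in the Art line and several feedback inhibitors of MAPK higher. Jun was at 7.56, 8.03 and 7.53 log2 CPM in the Art line and 9.80, 9.64 and 9.59 in the Rag line (log2 fold change -1.97, SE 0.11, adjusted p = 1.04e-08). Fosb was at 1.67, 1.72 and 1.75 log2 CPM in the Art line and 4.27, 4.15 and 4.30 in the Rag line (log2 fold change -2.53, SE 0.10, adjusted p = 7.4e-10). The Rag line was higher in every library for both, while Egr2, another immediate-early factor, was higher in the Art line (1.53, SE 0.12). Spry2, which damps growth-factor signals, was at 5.40, 5.12 and 5.32 log2 CPM in the Art line and 3.95, 3.77 and 3.95 in the Rag line (log2 fold change 1.39, SE 0.087, adjusted p = 3.73e-08), and the MAPK phosphatase Dusp4 was higher (0.83, SE 0.075), whereas Dusp1 (-1.30, SE 0.086) and Dusp2 (-1.06, SE 0.057) were lower. The list of 24 had 11 higher and 11 lower (2 higher and 6 lower with the spread of all 15 libraries). Either way this is 45.8%, where 28.8% of all genes were higher and 30.9% lower. Of 18 genes of IL-7 and STAT5 signalling, 6 were higher in the Art line, 8 were lower and 4 did not pass (3 higher and 2 lower with that spread). As shares these are 33.3% and 44.4%. Il2ra, the IL-2 receptor alpha chain of late pre-B cells, was at 4.76, 5.20 and 4.82 log2 CPM in the Art line and 6.45, 6.37 and 6.41 in the Rag line (log2 fold change -1.49, SE 0.094, adjusted p = 3.94e-08). The feedback inhibitors Socs3 (-0.96, SE 0.077) and Cish (-0.59, SE 0.073) were lower and the kinase gene Pim1 was higher (0.57, SE 0.051). Cish, Dusp4, Egr2 and Socs3 did not pass with the spread estimated over all 15 libraries.

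Adhesion genes held some of the widest differences. Itgb7, an integrin chain that pairs for gut homing, was at 3.03, 2.88 and 3.30 log2 CPM in the Art line and 0.33, 0.75 and 0.021 in the Rag line (log2 fold change 2.70, SE 0.19, adjusted p = 1.12e-07). Itgb5, another integrin chain, was at 3.14, 3.08 and 2.98 log2 CPM in the Art line and 0.97, 1.04 and 1.11 in the Rag line (log2 fold change 2.02, SE 0.13, adjusted p = 3.89e-08). Of 22 genes, 9 were higher in the Art line, 5 were lower and 8 did not pass (5 higher and 3 lower with the spread of all 15 libraries). That was 40.9% and 22.7% of the list, against 28.8% and 30.9% of all genes. S1pr1, the receptor by which lymphocytes leave tissues, was lower (-1.30, SE 0.11). In the Notch pathway of 19 genes, 6 were higher in the Art line, 7 were lower and 6 did not pass (4 higher and 4 lower with that spread). Its shares, 31.6% and 36.8%, were close to those of all genes. The ligand gene Jag1 was at 1.79, 1.59 and 2.18 log2 CPM in the Art line and -0.15, -0.57 and -0.088 in the Rag line (log2 fold change 2.12, SE 0.22, adjusted p = 3.09e-06). Dtx4 was higher (1.16, SE 0.058) while its relatives Dtx1 (-1.82, SE 0.19) and Dtx3 (-1.24, SE 0.088) were lower, as was the receptor gene Notch1 (-0.79, SE 0.068).

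Heme handling is of interest because SPIC is known for driving it in macrophages. Hmox1, the heme-degrading enzyme, was at 0.50, 0.80 and 0.96 log2 CPM in the Art line and 2.82, 3.04 and 3.16 in the Rag line (log2 fold change -2.26, SE 0.16, adjusted p = 1.11e-07). It was 4.78-fold lower in the Art line, and its reads per library were 32, 32 and 35 there against 160, 213 and 242 in the Rag line. Bach1, a repressor of Hmox1 that heme inactivates, was lower (-0.73, SE 0.059) and the mitochondrial transporter Abcb10 higher (1.25, SE 0.073). Hmox2 did not pass (adjusted p = 0.6), and of all 25 genes 7 were higher in the Art line, 11 were lower and 7 did not pass (4 higher and 5 lower with the spread of all 15 libraries). By share 28% were higher and 44% lower, beside 28.8% and 30.9% of all genes. Sterol and fatty-acid genes had 15 of 27 higher and 5 lower (median 0.22; 4 higher and 1 lower with that spread), with Scd2, a fatty-acid desaturase, at 0.91, SE 0.059, Fdps at 0.85, SE 0.078 and Insig1, which holds back sterol synthesis, at -0.87, SE 0.062. For the sterol list the shares were 55.6% and 18.5%. Genes of quiescence driven by FOXO had 10 of 22 higher and 9 lower (5 higher and 5 lower with that spread), among them Btg1 (-0.65, SE 0.12). The FOXO shares were 45.5% and 40.9%. Splicing genes, the field of BCLAF1, had 9 of 29 higher and 9 lower (0 higher and 2 lower with that spread) and no difference as large as 0.5 log2 units. With 31% each way, they lay near the shares of all genes. Srsf6 was at -0.39, SE 0.051, Clk4 at -0.43, SE 0.069, and Thrap3, the paralog of Bclaf1, did not pass (log2 fold change 0.089, SE 0.051, adjusted p = 0.147). Clk4 and Fdps did not pass with the spread estimated over all 15 libraries.

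**Figure D4:**
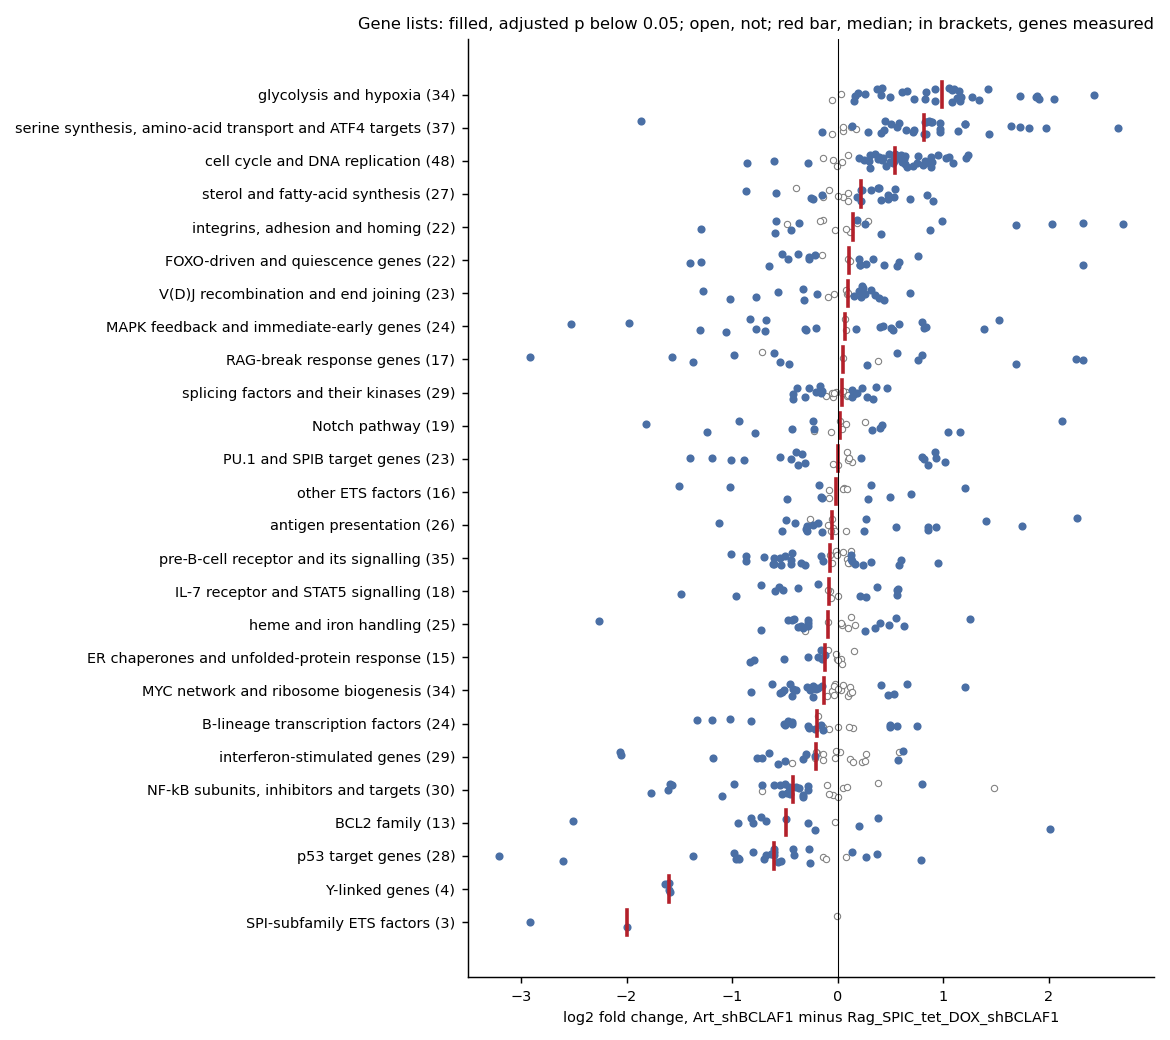
Each point is 1 gene of a list (rows, ordered by median, with the number measured in brackets), placed by its log2 fold change (x axis, Art_shBCLAF1 minus Rag_SPIC_tet_DOX_shBCLAF1); filled points passed an adjusted p of 0.05 in limma, open points did not, and red bars are medians. Medians run from -2.0 for the SPI factors to 0.99 for glycolysis and hypoxia, and most lists hold genes on both sides of 0.

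Genes of the Y chromosome and of other cell types also separated the lines. All 4 Y-linked genes measured were lower in the Art line, as were 30.9% of all genes. Kdm5d was at 0.95, 0.84 and 1.08 log2 CPM in the Art line and 2.74, 2.48 and 2.43 in the Rag line (log2 fold change -1.60, SE 0.15, adjusted p = 1.4e-06), and Eif2s3y at 1.77, 1.57 and 1.77 log2 CPM in the Art line and 3.36, 3.27 and 3.26 in the Rag line (log2 fold change -1.59, SE 0.12, adjusted p = 1.6e-07). Ddx3y (-1.60, SE 0.15) and Uty (-1.63, SE 0.23) gave like values, so that the 4 genes lay within -1.63 and -1.59. In the unlabelled groups the order was the reverse for Kdm5d, at means of 5.03 in Art and 4.05 in Rag_SPIC_tet_NoDOX. Both labelled lines thus lay below both of these means for Kdm5d, and the cause was not tested. Between the unlabelled groups 0 of the 4 genes passed with all libraries, and all 4 passed as higher in Art without Art replicate 3. Jchain, which links antibody chains in plasma cells, was at 5.51, 5.18 and 5.34 log2 CPM in the Art line and 2.23, 2.26 and 2.36 in the Rag line (log2 fold change 3.06, SE 0.097, adjusted p = 1.28e-10), 8.33-fold higher in the Art line. Of the other 4 plasma-cell genes measured, Irf4 was lower (-0.50, SE 0.068) and Sdc1, Prdm1 and Xbp1 did not pass (adjusted p = 0.565, 0.178 and 0.0551). The summed level of the 5 ran against Jchain, at 424 to 466 CPM in the Art line and 491 to 514 in the Rag line. Lck, a kinase of T cells, was at 2.52, 2.37 and 2.62 log2 CPM in the Art line and 4.40, 4.37 and 4.34 in the Rag line (log2 fold change -1.87, SE 0.096, adjusted p = 6.63e-09), whereas the T-cell genes Cd28 (1.47, SE 0.18) and Thy1 (0.95, SE 0.10) were higher in the Art line. Of 14 T-cell and NK-cell markers 5 were measured, and their sum was 54.6 to 65.7 CPM in the Art line and 48.7 to 53.1 in the Rag line. The part of any of these in the other differences was not tested.

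Cells of the same genotypes were also sequenced without the hairpin label, as Art and as uninduced Rag_SPIC_tet_NoDOX, 3 libraries each. That comparison shares no library with the one above. There 594 genes passed (5.14%), and without Art replicate 3, a library of 5.81 M reads that stands apart from its group, 5473 did, 23.2% of all genes higher in Art and 24.2% lower. With any 1 of the other 5 libraries left out, 0 or 1 gene passed in limma, with 1493 to 2303 at an unadjusted p under 0.05. Of the genes that passed in both, 347 of 456 had opposite signs, and without Art replicate 3 it was 2712 of 3578 (75.8%). The 3578 are 65.4% of the genes that passed between the unlabelled groups and 51.9% of those between the labelled ones. The change of the line difference was tested directly, as the shBCLAF1-labelled difference minus the unlabelled one, and 3610 genes passed (31.3%), 1773 above and 1837 below 0, and 7049 passed without Art replicate 3. Doxycycline and the induced construct are part of the labelled difference only, so they and the hairpin label cannot be told apart in this test. With Rag_SPIC_tet_DOX, which was induced but has no hairpin label, in place of the uninduced cells, 3621 genes passed. How far these are the same genes was not tested. Labelled and unlabelled cells also differed in Y-linked genes, given above, whose part was not tested.

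Glycolysis and hypoxia genes, higher in the labelled Art line than in the labelled Rag line, mostly did not pass between the unlabelled groups with all 6 libraries. Of the 34 without the label, 0 passed as higher and 6 as lower in Art (8 and 18 without Art replicate 3), against 32 higher and 0 lower with the label. The list's unlabelled median was -0.29 with and -0.34 without that library. Between the unlabelled groups 5.14% of all genes passed, and without that library 23.2% passed as higher and 24.2% as lower. The difference between the comparisons passed for 24 genes upward and 1 downward (28 and 2 without that library). Over all 11551 genes that difference passed for 1773 upward and 1837 downward (31.3% together), and for 7049 without that library. Of 48 cell-cycle genes without the label, 0 passed as higher and 10 as lower in Art (2 and 43 without Art replicate 3), against 40 higher and 3 lower with the label. Their difference between the comparisons passed for 32 genes upward and 1 downward (43 and 1 without that library). Of 37 serine and ATF4 genes without the label, 1 passed as higher and 3 as lower in Art (5 and 18 without Art replicate 3), against 30 higher and 2 lower with the label. Their difference between the comparisons passed for 22 genes upward and 1 downward (30 and 4 without that library).

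Of 30 NF-kB genes without the label, 2 passed as higher and 2 as lower in Art (12 and 8 without Art replicate 3), against 1 higher and 20 lower with it. Of all genes without the label, 23.2% passed as higher and 24.2% as lower when Art replicate 3 was left out. The difference between the comparisons passed for 1 NF-kB gene upward and 13 downward (3 and 17 without that library). Of 14 pre-B-cell markers, 1 passed as higher and 0 as lower in Art (9 and 3 without Art replicate 3), against 0 higher and 11 lower with the label. Their difference between the comparisons passed for 0 genes upward and 8 downward (1 and 11 without that library). Of 28 p53 targets, 0 passed as higher and 3 as lower in Art (3 and 15 without Art replicate 3), against 4 higher and 20 lower with the label. Their difference between the comparisons passed for 4 genes upward and 6 downward (6 and 15 without that library). Over all 11551 genes it passed for 1773 upward and 1837 downward (31.3%), so the p53 counts with all libraries lay near those shares. Without Art replicate 3, Trib3 was higher in Art than in the Rag cells by 1.09 log2 units without the label and by 1.73 with it, and Jchain by 1.88 and 3.06.

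**Figure D5:**
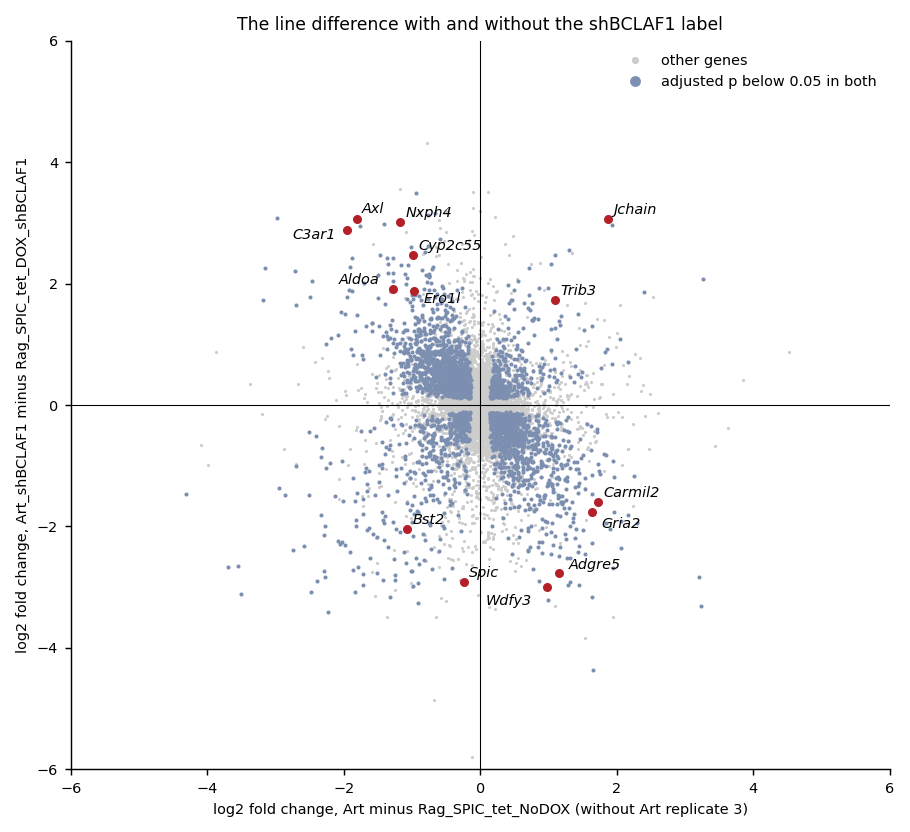
Each point is 1 gene, with the log2 fold change of Art minus Rag_SPIC_tet_NoDOX on the x axis (without Art replicate 3) and of Art_shBCLAF1 minus Rag_SPIC_tet_DOX_shBCLAF1 on the y axis. Blue genes passed in both, 2712 of the 3578 in the upper left and lower right corners, such as Axl and Wdfy3; Jchain and Trib3 lie in the upper right.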

How the data were processed

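RNA of 15 libraries was sequenced on paired-end Illumina runs, and 4 tables were deposited. The values are log2 CPM per gene that the authors deposited, made with Subread, featureCounts 1.4.5, edgeR and limma on mm9 per the submitters' processing notes; that the CPM are per effective library size with an offset of 0.5 reads was found from the values, which return to whole reads within 0.05 reads below 1000 reads. Each table lists the genes that passed an adjusted p-value of 0.05 in the authors' comparison (highest deposited value 0.0499), and the union of 11551 genes was analysed. Levels repeated across tables differed by 0. The tables' 18 symbols that had turned into dates were restored by gene identifier. A column of Art replicate 3 differs from its title by 1 character and was assigned to it.

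Differences were tested with limma 3.58.1 (R 4.3.3; lmFit and eBayes with a mean-variance trend, two-sided), with Benjamini-Hochberg adjustment over all 11551 genes and a threshold of 0.05, on the 6 libraries of the 2 groups, or on 12 for the difference of differences. The procedure was tested on simulated data. Tables and plots used Python 3.11.15, pandas 2.3.3, numpy 2.4.6 and matplotlib 3.10.9. The comparison and its gene lists were chosen with earlier results of these data known, so lists are described by counts and medians and not tested. Named genes are the 14 highest and 14 lowest changes among genes at or above the median level whose groups do not overlap, the genes of the labels and title, up to 5 members with the largest change and the first 3 genes of each list, and the 6 highest and 6 lowest differences of differences, with the 5 largest opposite changes each way. Outside that rule, chosen after their values were seen, are Asns, Atf4, Bnip3, Cars, Ccl3, Ccnd1, Ccne1, Cd74, Ddit3, Gapdh, Ldha, Mthfd2, Nfkbia, Pdk1, Pfkfb3, Pfkfb4, Pgk1, Pkm, Rela, Relb, Shmt1, Shmt2, Slc2a1, Slc3a2, Slc6a9, Slc7a5 and Wars. Promoter windows are RefSeq sequence of GRCm38.p6, matched by symbol, since the reads were placed on mm9. Alternatives covered scaling, filters, offsets, weights, the libraries in the fit, the replicate number and each replicate left out. Some genes that meet the rule are not reported here.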

Additional observations from a re-analysis of the deposited data

Results flagged for a closer look

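The difference between Art and Rag cells changed between unlabelled and shBCLAF1-labelled libraries for 3610 genes, by the limma test of the difference itself (labelled minus unlabelled, 12 libraries), and for 7049 without Art replicate 3. The values that follow are these differences of differences in log2 units, with the value without Art replicate 3 in brackets where it is given. The label genes that passed the test were Spic at -2.54 (-2.68), Spib at -2.16 (-2.16), Rag1 at -1.62 (-2.02) and Myc at 1.10 (1.20). Doxycycline and the induced SPIC construct are part of the labelled difference only. The value of Spic therefore includes its induction and cannot be assigned to the hairpin label. Among genes at or above the median level, the highest were Cyp2c55 at 3.38, Ero1l at 3.20, Plod2 at 3.06, Grb10 at 2.78, Aldoa at 2.67 and the mitotic kinase gene Bub1 at 2.64. The lowest were Carmil2, an actin regulator, at -3.31, Gria2 at -3.04, Slamf7 at -2.77, Snn at -2.77, Fam129c at -2.61 and Erg at -2.58. With Rag_SPIC_tet_DOX in place of the uninduced cells, Aldoa did not pass (adjusted p = 0.0627). Other values in that setting, that of Spic among them, are not given here.

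Some genes were picked because they passed with opposite signs in the labelled and the unlabelled comparison and changed most. Wide differences of differences follow from that choice and are not a separate result. The receptor tyrosine kinase gene Axl was at 4.77, the complement receptor gene C3ar1 at 4.76 and Nxph4 at 4.41, while Wdfy3 was at -3.82, Slc44a4 at -4.36 and Adgre5, which encodes the adhesion receptor CD97, at -3.89. The chemokine gene Ccl22 was at 5.84 and Speer2 at -6.0, but these fitted values depend on the offset. Ccl22 had 1, 4 and 5 reads in the labelled Art libraries and 0 in each labelled Rag library. Speer2 had 5, 3 and 0 reads against 24, 16 and 17.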

How the results depend on the processing

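Of 250 named genes, 175 kept direction and call when all 15 libraries shared the spread and 75 lost the call, and the count of genes that passed fell to 2614. Otherwise the count lay between 5819 and 8352, and between 5819 and 7598 with each replicate left out. Genes at 1 log2 unit or more numbered 661 with log2(CPM + 1) and 672 among genes of mean log2 CPM of at least 1, which tests fewer low genes. Of 25 pathway lists, 7 had more genes higher than lower, and 6 to 9 over the alternatives. Scaling moved the share of higher calls by under 10 percentage points. The difference of differences passed for 2782 to 7049 genes with each replicate left out, the latter without Art replicate 3. The unlabelled comparison passed for 0 to 5473 genes with each replicate left out, and the cause was not tested.

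Replicate numbers did not pair the libraries: deviations of same-numbered libraries correlated at 0.015, -0.032 and 0.049. With the replicate block, 6842 genes passed in the main comparison, 1146 at 1 log2 unit or more, 3213 in the difference of differences and 0 in the unlabelled comparison (limma; 1902 at an unadjusted p under 0.05).

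Signs that reversed belonged to genes that did not pass. Without Art_shBCLAF1 replicate 3, Spi1 was at 0.033 (lowest -0.059, with each replicate left out) and Hsp90b1 at 0.0019. Without Art_shBCLAF1 replicate 2, Fli1 was at -0.0070 (highest 0.089), Vpreb2 at 0.019 (lowest -0.12), Mycn at 0.017 (lowest -0.063) and Bcl2l2 at 0.042 (lowest -0.081). Without Art_shBCLAF1 replicate 1, Hmox2 was at -0.032 (highest 0.10) and Phgdh at -0.038 (highest 0.14). Hsp90b1 was at 0.0096 without Rag_SPIC_tet_DOX_shBCLAF1 replicate 3, and with array weights Bcl2l2 was at 0.057, Pfkfb3 at 0.0098 and Pfkfb4 at -0.016. With plain library totals Pfkfb4 was at -0.0060. Depth limits genes of a few reads, such as Ccl22.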

Other observations

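Art_shBCLAF1 replicate 2 stood at one end of its group for most genes of several lists. It was the lowest of its group for 29 of 34 glycolysis and hypoxia genes, 34 of 37 serine and ATF4 genes, 41 of 48 cell-cycle genes and 28 of 34 genes of the MYC network and ribosome biogenesis. It was the highest for 21 of 28 p53 targets, 20 of 24 B-lineage transcription factors and 17 of 22 FOXO-driven genes. Among NF-kB genes it was the highest for 13 of 30, which is not most of them. Over all 11551 genes it was the lowest for 4789 and the highest for 4161.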
